A study of Homo sapiens with 9 samples.

Results

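The proteasome genes described here are the 43 of 60605 genes in the deposited table whose symbol begins with PSMA, PSMB, PSMC, PSMD or PSME and ends in a number. They comprise 31 constitutive subunits of the 20S core and the 19S regulatory particle, the 5 subunits PSMB8, PSMB9, PSMB10, PSME1 and PSME2 that interferon is known to induce, and 7 others. Those 5 are called induced below for that known response, whatever their change in these data. RNA-seq was performed on TE13, an established human esophageal squamous cell carcinoma (ESCC) line. Cells received control siRNA or 1 of 2 siRNAs, PARylator siRNA.1 and PARylator siRNA.2, against the long noncoding RNA LINC00885, called PARylator in the study. Each condition had 3 libraries, 9 in all, and no further agent, allele or time point is named for them. A single cell line was studied, so its genotype is shared by every group, and the time between transfection and RNA extraction is not given in the sources used here.

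The 20S core is a barrel of stacked rings in which alpha subunits form the gate and beta subunits hold the proteolytic sites. The 19S particle caps the barrel, binds ubiquitylated proteins, removes the ubiquitin and unfolds the substrate with a ring of ATPases. Interferon is known to induce PSMB8, PSMB9 and PSMB10, which take the places of PSMB5, PSMB6 and PSMB7 in newly assembled cores and give the immunoproteasome, and to induce the PA28 activator made of PSME1 and PSME2. The immunoproteasome is best known for cutting proteins into peptides for MHC class I.

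The libraries held between 15337917 and 17899074 counts on genes with control siRNA, between 15374616 and 17762752 with siRNA.1, and between 19213164 and 22559998 with siRNA.2. LINC00885 itself was close to the limit of detection, with 6, 7 and 12 counts in the control libraries, 4, 5 and 2 with siRNA.1, and 2, 0 and 4 with siRNA.2. Set against the control libraries it had -1.21 on the log2 scale with siRNA.1 (standard error, SE, of 0.95, edgeR adjusted p = 0.376) and -2.33 with siRNA.2 (SE 1.01, adjusted p = 0.0659). The knockdown thus did not pass the test in these libraries, where so few counts leave only large changes detectable. The study reported the knockdown by qPCR. Markers of squamous epithelium were expressed in all libraries, with a summed level of 479 to 499 FPKM with control siRNA, 395 to 430 under siRNA.1 and 419 to 436 under siRNA.2. Of the 7 markers, 3 rose and 3 fell with each siRNA at an edgeR adjusted p under 0.05. These are 85.7% of the list, beside 30.3% and 30.9% of all genes. KRT5, the basal keratin, went from 134 to 151 FPKM with control siRNA to 36.8 to 42.2 under siRNA.1 and 53.8 to 59.1 under siRNA.2, a log2 fold change of -1.86 and -1.36, while KRT6A, DSG3 and PERP rose with both. These markers were named after their values were seen. FPKM divides a gene's count by its exonic length in kilobases and by the total count of the library.

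PSMB8 and PSMB9 rose with both siRNAs, PSMB10 fell, and PSME1 and PSME2 did not pass the test in either comparison. The constitutive subunits stayed within a log2 fold change of -0.23 to 0.23 under siRNA.1 and of -0.15 to 0.30 under siRNA.2. Of the 41 members with a mean of at least 0.1 FPKM, which were tested with edgeR's quasi-likelihood test over all 21395 such genes, 16 (39.0%) had an adjusted p under 0.05 with siRNA.1, where the share over all genes was 30.3%. With siRNA.2 the count was 11 of 41 (26.8%), against 30.9% over all genes. With siRNA.1, 7 members were higher and 9 lower, beside 15% and 15.2% of all genes. With siRNA.2, 7 were higher and 4 lower, beside 15.8% and 15.1%. The median log2 fold change of the tested members was -0.05 and 0.02, beside medians of -0.00 and 0.00 over all genes. Both comparisons share the control libraries. Changes of at least 0.5 on the log2 scale that also passed the test were found for 2 of 41 members (4.88%) with each siRNA, PSMB8 and PSMB9, and for 11.3% and 11.7% of all genes.

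**Figure D1:**
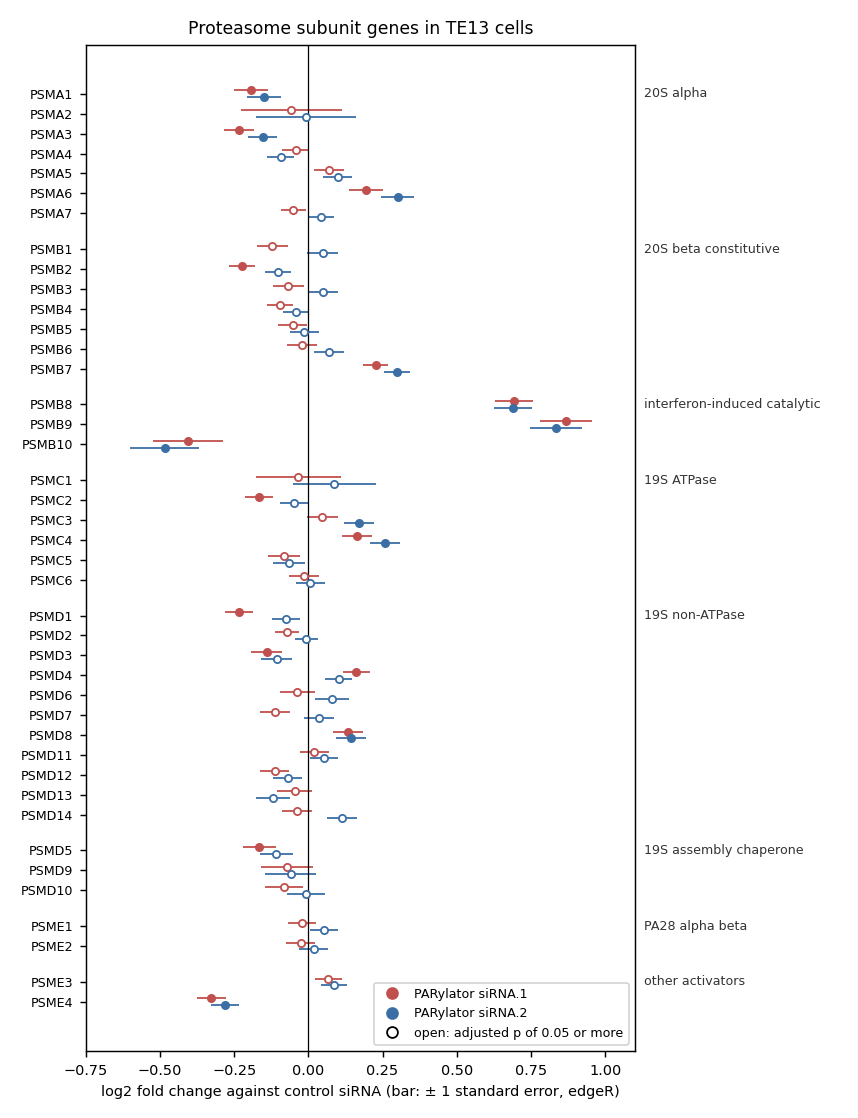
Log2 fold change of the 41 tested proteasome genes against control siRNA, grouped by role, for siRNA.1 (red) and siRNA.2 (blue), with bars of 1 SE from edgeR and filled points for an adjusted p under 0.05. PSMB8 and PSMB9 lie between 0.69 and 0.87, PSMB10 at -0.41 and -0.48, and the constitutive subunits between -0.23 and 0.30.

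PSMB8 encodes the immunoproteasome's chymotrypsin-like subunit (ENSG00000204264, GRCh38 chromosome 6, 32840717 to 32844679). It stood at 13.4, 14.0 and 15.0 FPKM in the control libraries, at 24.1, 23.7 and 22.1 with siRNA.1, and at 23.1, 23.1 and 22.8 with siRNA.2. All 6 siRNA libraries were above all 3 control libraries. The share of all genes whose groups do not overlap is not given here. Control and siRNA libraries also did not overlap for PSMA5, PSMD12 and PSME3, which passed in neither comparison. Absence of overlap alone, here and below, thus does not set a gene apart. On the log2 scale the fold change was 0.69 with siRNA.1 (SE 0.06, edgeR adjusted p = 3.05e-25) and 0.69 with siRNA.2 (SE 0.06, adjusted p = 2.23e-25), or 1.62-fold and 1.61-fold. The siRNAs differed from each other by -0.01 (approximate 95% interval -0.13 to 0.11).

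PSMB9 encodes the beta1i subunit and lies on the opposite strand of the same locus, in the class II region of the MHC (ENSG00000240065, chromosome 6, 32844136 to 32859851). Its level was 6.07, 6.25 and 6.43 FPKM with control siRNA, 12.2, 10.8 and 11.9 with siRNA.1, and 10.8, 10.3 and 12.5 with siRNA.2. The control libraries were again below every siRNA library. On the log2 scale the fold change was 0.87 with siRNA.1 (SE 0.09, edgeR adjusted p = 7.47e-21) and 0.83 with siRNA.2 (SE 0.09, adjusted p = 9.1e-20). In the RefSeq table the start of PSMB9 lies 488 bases from that of TAP1, on the other strand. TAP1, a subunit of the transporter that carries peptides into the endoplasmic reticulum, stood between 12.2 and 13.0 FPKM with control siRNA, between 27.2 and 29.8 with siRNA.1, and between 27.5 and 30.1 with siRNA.2.

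The antisense gene PSMB8-AS1 shares 602 exonic bases with PSMB8 on the opposite strand and 174 with PSMB9 on the same strand, none of them in the canonical transcript of either. PSMB8 and PSMB9 each share exonic bases with 2 genes, of which PSMB8-AS1 shares the most. The deposited spans of PSMB8 and PSMB9 also overlap each other, from 32844136 to 32844679. Whether reads were counted by strand is not given in the sources used here, so reads from these stretches cannot be told apart. PSMB8-AS1 had 52, 84 and 53 counts with control siRNA, 167, 142 and 116 under siRNA.1, and 171, 138 and 130 under siRNA.2, and rose by 1.08 and 0.87 on the log2 scale (edgeR adjusted p = 2.89e-08 and 1.28e-05). PSMB8 itself had a mean of 1270 counts over the 9 libraries and PSMB9 590.

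PSMB10 encodes the beta2i subunit (ENSG00000205220, chromosome 16, 67934506 to 67936864), and its levels ran the other way. The control libraries stood at 10.4, 11.2 and 12.5 FPKM, those with siRNA.1 at 7.31, 9.28 and 9.65, and those with siRNA.2 at 7.27, 9.95 and 7.39. All 6 siRNA libraries were below the control libraries, by a narrow margin for the siRNA.2 library at 9.95. The gene fell by 0.41 on the log2 scale with siRNA.1 (SE 0.12, edgeR adjusted p = 0.00279) and by 0.48 with siRNA.2 (SE 0.12, adjusted p = 0.000206). The call with siRNA.1 was lost without control library 3 (-0.33, adjusted p = 0.0533), without siRNA.1 library 1 (-0.29, adjusted p = 0.081) and with limma on log2(FPKM + 0.1) (-0.38, adjusted p = 0.0905). The call with siRNA.2 held in all 20 alternatives, with adjusted p up to 0.0422.

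Of PSMB10's canonical transcript, 56.1% is shared with the same-strand gene ENSG00000261884, which had 47 to 55 counts with control siRNA, 50 to 63 under siRNA.1 and 63 to 95 under siRNA.2. The partner gene had log2 fold changes of 0.08 and 0.24 and did not pass the test (adjusted p = 0.851 and 0.512). With the counts of both genes summed, an alternative chosen after seeing the data, PSMB10 gave -0.32 on the log2 scale with siRNA.1 (adjusted p = 0.012) and -0.35 with siRNA.2 (adjusted p = 0.00443).

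The PA28 genes PSME1 and PSME2, whose products form the ring that opens the 20S gate, were expressed above PSMB8, PSMB9 and PSMB10 per length in every library. PSME1 stood at 109, 104 and 106 FPKM with control siRNA, at 108, 102 and 109 with siRNA.1, and at 109, 116 and 108 with siRNA.2. Log2 fold changes were -0.02 with siRNA.1 (approximate 95% interval -0.11 to 0.07, edgeR adjusted p = 0.796) and 0.05 with siRNA.2 (-0.04 to 0.14, adjusted p = 0.472). PSME2 stood at 47.1, 50.5 and 49.9 FPKM with control siRNA, at 52.2, 47.1 and 48.2 with siRNA.1, and at 50.7, 49.2 and 50.7 with siRNA.2. Log2 fold changes were -0.03 (-0.12 to 0.07, edgeR adjusted p = 0.751) and 0.02 (-0.08 to 0.11, adjusted p = 0.842). The groups overlapped for both genes, and the upper bounds of all 4 intervals lie below the lower bounds for PSMB8 (0.57 and 0.56) and PSMB9 (0.69 and 0.66).

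**Figure D2:**
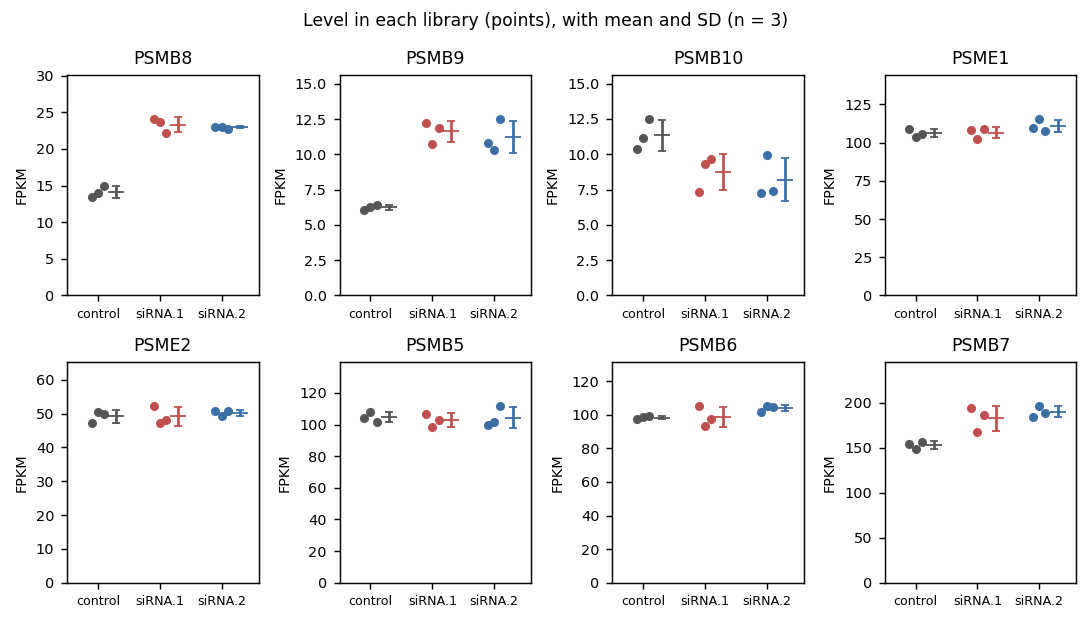
FPKM of the 5 interferon-induced subunits and the 3 constitutive counterparts PSMB5, PSMB6 and PSMB7 in each of the 9 libraries (points), with the mean and SD of each group (n = 3), each axis starting at 0. PSMB8 and PSMB9 sit higher in all 6 siRNA libraries, PSMB10 lower, and PSME1 and PSME2 overlap between the groups.

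The constitutive counterparts were measured beside them. PSMB5, which carries the chymotrypsin-like site of the standard core, stood at 104, 108 and 102 FPKM with control siRNA, at 107, 98.6 and 103 with siRNA.1, and at 99.8, 102 and 112 with siRNA.2. PSMB6, with the caspase-like site, stood at 97.3, 98.4 and 99.0 FPKM, at 105, 93.4 and 97.3, and at 102, 105 and 105. Neither passed the test, with log2 fold changes of -0.05 and -0.01 for PSMB5 and of -0.02 and 0.07 for PSMB6. PSMB7, with the trypsin-like site, stood at 154, 148 and 157 FPKM with control siRNA, at 194, 167 and 186 with siRNA.1, and at 184, 196 and 189 with siRNA.2. It rose by 0.23 on the log2 scale with siRNA.1 (SE 0.04, edgeR adjusted p = 1.33e-06) and by 0.30 with siRNA.2 (SE 0.04, adjusted p = 4.68e-11), so that PSMB7 and PSMB10 moved in opposite directions.

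Because each induced subunit replaces 1 constitutive subunit, the pairs were compared within a library, where scaling between libraries cancels. PSMB8 made up 11.9% ± 0.821 (SD, n = 3) of the summed FPKM of PSMB8 and PSMB5 with control siRNA, 18.5% ± 0.842 under siRNA.1 and 18.1% ± 0.984 under siRNA.2. PSMB9 made up 5.98% ± 0.113 of PSMB9 and PSMB6, then 10.5% ± 0.287 and 9.74% ± 0.871. PSMB10 made up 6.90% ± 0.564 of PSMB10 and PSMB7, then 4.61% ± 0.862 and 4.13% ± 0.602. With control siRNA the constitutive mRNA thus exceeded the induced one in every pair and library.

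On the log2 scale the PSMB8 to PSMB5 ratio was higher by 0.73 in the 6 siRNA libraries than in the 3 control libraries, the PSMB9 to PSMB6 ratio by 0.82, and the PSMB10 to PSMB7 ratio differed by -0.71. In each pair the siRNA and control libraries did not overlap. The exact two-sided permutation test gave p = 0.0238 for each pair, the smallest p that 6 against 3 libraries allow, and 0.0714 after Benjamini-Hochberg adjustment over 9 tests. With 3 against 3 libraries the smallest p is 0.1, and all 6 tests of a single siRNA gave that value. Given these limits, 0.0714 is the smallest adjusted p that the 9 ratio tests could reach. None could have passed an adjusted threshold of 0.05 whatever the ratios were, so this outcome does not bear on whether the ratios changed. FPKM uses the deposited exonic length, which covers all isoforms and is longer for PSMB8 (3480 bases) than for PSMB5 (1549 bases). With the canonical transcript length in its place, chosen after seeing the data, the PSMB8 share was 22.0%, 32.1% and 31.5% in the 3 conditions, the PSMB9 share 10.6%, 18.0% and 16.8%, and the PSMB10 share 6.35%, 4.24% and 3.80%.

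**Figure D3:**
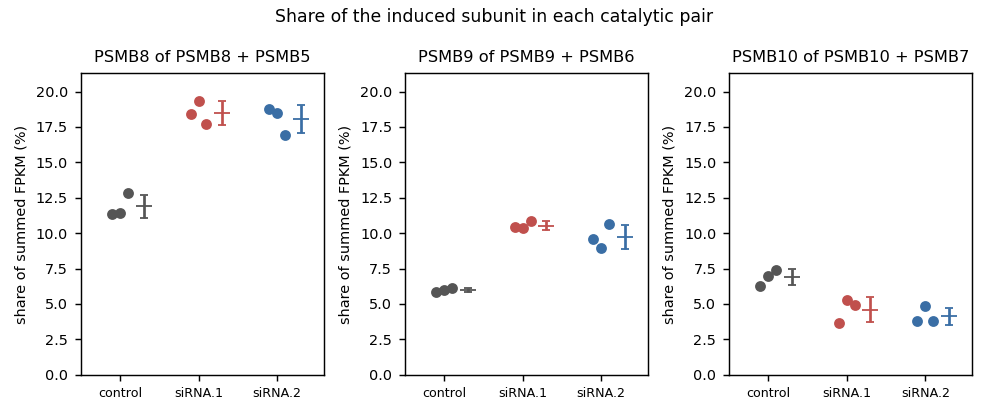
Share of the induced subunit in the summed FPKM of each catalytic pair, in percent, in each library (points), with the mean and SD of each group (n = 3), on 1 axis range for the 3 pairs. The PSMB8 share lies between 11.4% and 12.8% with control siRNA and between 16.9% and 19.4% with the siRNAs, while the PSMB10 share lies between 6.29% and 7.40% and between 3.63% and 5.25%.

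Among the 7 alpha subunits, which form the outer rings, 1 rose and 2 fell with each siRNA, and the same 3 genes passed in both comparisons. These 3 are 42.9% of the list, beside 30.3% and 30.9% of all genes. PSMA6 stood at 13.0, 13.3 and 13.5 FPKM with control siRNA, at 15.3, 15.9 and 15.2 with siRNA.1, and at 17.2, 16.2 and 16.1 with siRNA.2, without overlap between control and siRNA libraries. It rose by 0.19 (edgeR adjusted p = 0.00362) and 0.30 (adjusted p = 8.94e-07). PSMA3 stood at 54.4, 53.3 and 52.8 FPKM, at 50.6, 43.6 and 44.7, and at 48.2, 49.9 and 47.3, and fell by 0.23 (adjusted p = 2.44e-05) and 0.15 (adjusted p = 0.00791).

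PSMA1 stood at 30.4, 34.6 and 35.9 FPKM with control siRNA, at 29.4, 29.6 and 31.0 with siRNA.1, and at 30.5, 31.3 and 29.9 with siRNA.2, and the control group overlapped both others. It fell by 0.19 (edgeR adjusted p = 0.00358) and 0.15 (adjusted p = 0.0279). Without control library 3 both calls were lost (-0.14, adjusted p = 0.102, and -0.10, adjusted p = 0.299). The siRNA.2 call was also lost without control library 2, siRNA.2 library 1 or siRNA.2 library 3 (-0.13 to -0.14). The PSMA3 call with siRNA.2 did not pass in limma on log2(FPKM + 0.1) (adjusted p = 0.0812). The other 4 alpha subunits, PSMA2, PSMA4, PSMA5 and PSMA7, passed in neither comparison.

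Of the 7 constitutive beta subunits, PSMB7 rose with both siRNAs and PSMB2 fell with siRNA.1. PSMB2 stood at 60.7, 62.0 and 67.1 FPKM with control siRNA, at 54.7, 54.0 and 57.0 with siRNA.1, and at 58.2, 61.4 and 58.4 with siRNA.2. Log2 fold changes were -0.22 with siRNA.1 (edgeR adjusted p = 4.22e-06) and -0.10 with siRNA.2 (adjusted p = 0.0571), where it passed in 8 of 19 alternatives, DESeq2 among them. The other 5, PSMB1, PSMB3, PSMB4, PSMB5 and PSMB6, passed in neither comparison. The median log2 fold change of the 7 was -0.07 and 0.05.

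The 6 ATPases of the 19S base, PSMC1 to PSMC6, thread the substrate into the core. PSMC4 stood at 50.7, 51.9 and 50.5 FPKM with control siRNA, at 57.0, 57.5 and 60.1 with siRNA.1, and at 59.8, 62.2 and 62.3 with siRNA.2. It rose by 0.16 (edgeR adjusted p = 0.00637) and 0.26 (adjusted p = 3.19e-06), and the siRNA.1 call was lost without siRNA.1 library 3 (0.14, adjusted p = 0.0664). PSMC3 rose by 0.17 with siRNA.2 (adjusted p = 0.00341), from 52.7, 60.9 and 61.7 FPKM to 64.7, 67.7 and 66.7, a call lost without control library 1 (0.10, adjusted p = 0.17). PSMC2 fell by 0.17 with siRNA.1 (adjusted p = 0.00265), which was lost without control library 2 (-0.12, adjusted p = 0.0848). PSMC1, PSMC5 and PSMC6 passed in neither comparison.

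Of the 11 non-ATPase subunits of the 19S particle, 2 rose and 2 fell with siRNA.1, and 1 rose with siRNA.2. The called share was 36.4% and 9.09%, beside 30.3% and 30.9% of all genes. PSMD4, a ubiquitin receptor, stood at 65.7, 67.4 and 66.8 FPKM with control siRNA, at 78.0, 73.3 and 76.6 with siRNA.1, and at 71.2, 71.6 and 73.5 with siRNA.2. It rose by 0.16 with siRNA.1 (edgeR adjusted p = 0.00239), and its value with siRNA.2 was 0.10 (adjusted p = 0.0773), which passed in 4 of 19 alternatives, limma among them. PSMD1, the large scaffold subunit of the base, stood at 12.2, 12.7 and 13.7 FPKM with control siRNA, at 11.2, 11.0 and 11.2 with siRNA.1, and at 12.3, 12.0 and 12.6 with siRNA.2. It fell by 0.23 with siRNA.1 (adjusted p = 6.86e-06), and its value with siRNA.2 was -0.08 (adjusted p = 0.235).

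PSMD8 rose by 0.13 with siRNA.1 and 0.14 with siRNA.2 (edgeR adjusted p = 0.0273 and 0.0147), and PSMD3 fell by 0.14 with siRNA.1 (adjusted p = 0.0244). The PSMD8 calls were lost without control library 1 (0.12 and 0.13), control library 2 (0.11 and 0.12), siRNA.1 library 3 (0.10, siRNA.1 call) or siRNA.2 library 2 (0.12, siRNA.2 call). The PSMD3 call was lost without control library 2 or 3 or siRNA.1 library 2 or 3 (-0.12 to -0.13). The other 7 non-ATPase subunits, among them the deubiquitylase PSMD14 and the abundant PSMD2, passed in neither comparison with control.

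Over the whole constitutive set there were 5 higher and 6 lower of 31 with siRNA.1 (35.5%, beside 30.3% over all genes), and 5 higher and 2 lower with siRNA.2 (22.6%, beside 30.9%). With both siRNAs, 4 of the 31 were higher and 2 lower. The share of all genes called with both was not computed, and both comparisons share the control libraries. Their median log2 fold change was -0.05 and 0.04. Across 19 alternatives, 9 of the 16 member calls with siRNA.1 and 7 of the 11 with siRNA.2 held in every one, and these included PSMB8, PSMB9, PSMB7, PSMA6 and PSME4 in both comparisons.

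The remaining members are assembly chaperones, alternative activators and tissue-restricted subunits. PSME4, the PA200 activator known from spermatogenesis and histone degradation, stood at 19.9, 18.3 and 19.1 FPKM with control siRNA, at 15.0, 16.4 and 15.2 with siRNA.1, and at 16.4, 15.4 and 15.8 with siRNA.2, with all siRNA libraries below the controls. It fell by 0.33 (edgeR adjusted p = 2.35e-10) and 0.28 (adjusted p = 4.49e-08). PSME3, the nuclear PA28 gamma, had log2 fold changes of 0.07 and 0.09 and did not pass (adjusted p = 0.293 and 0.144).

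Of the 19S assembly chaperones PSMD5, PSMD9 and PSMD10, PSMD5 fell by 0.17 with siRNA.1 (edgeR adjusted p = 0.0124), a call lost without control library 2 or 3 or siRNA.1 library 1 (-0.14 to -0.16), and none passed with siRNA.2. There, 0 of 3 had an adjusted p under 0.05, and their log2 fold changes lay between -0.11 and -0.01. PSMA8, the germ cell alpha subunit, had 1 count in 1 siRNA.2 library and 0 in the other 8, and PSMB11, the thymus subunit, had 0 in all 9. Both were at the floor, set at 3 counts, in all 3 groups, and were not tested.

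Levels among the constitutive subunits were uneven although the core holds each in equal number. With control siRNA the 14 core subunits ranged from 0.817 FPKM (PSMA2) to 172 (PSMA7), with a median of 60.9, and the 17 subunits of the 19S particle from 1.62 FPKM (PSMC1) to 89.8 (PSMD2), with a median of 27.1. Part of this order follows the length used: per kilobase of canonical transcript, PSMA6 moved from 13.3 to 84.4 and PSMD6 from 9.31 to 61.9. The deposited exonic lengths of the members ran from 1168 bases (PSMB3) to 15795 (PSMD1). Without PSMA2 and PSMC1, levels per canonical kilobase ran from 38.4 to 346 for the core and from 39.8 to 153 for the 19S particle.

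PSMA2 and PSMC1, singled out after their values were seen, stood far below the subunits they assemble with. PSMA2 had 82 to 148 counts per library (0.64 to 1.00 FPKM), and all of its canonical transcript (100%) is shared with the same-strand gene ENSG00000256646. PSMC1 had 152 to 222 counts (1.42 to 1.89 FPKM), and 83.2% of its canonical transcript is shared with NRDE2 on the opposite strand, which had 388 to 522 counts. The processed pseudogene PSMC1P1 on chromosome 3 had 845 to 1395 counts (36.7 to 47.2 FPKM), and all 13 PSMC1 pseudogenes together had 566% of the counts of PSMC1. How the counting treated reads that lie in several genes or align to several places is not given in the sources used here, so the levels and fold changes of both genes are uncertain.

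PSMC1 had log2 fold changes of -0.03 and 0.09 (edgeR adjusted p = 0.906 and 0.71), while PSMC1P1 had -0.25 (adjusted p = 0.00178) and -0.00 (adjusted p = 1). Summed, an alternative chosen after seeing the data, they gave -0.21 with siRNA.1 (adjusted p = 0.00439) and 0.01 with siRNA.2 (adjusted p = 0.924). In all, 18 of the 43 members share an exonic base with another gene, and 6 share at least 50% of the canonical transcript: PSMA1, PSMA2, PSMA6, PSMB10, PSMC1 and PSMD7. The partners of PSMA1 and PSMA6, on the same strand, had at most 2 and 18 counts in any library. Low counts of a partner do not show how shared reads were assigned, so the levels and fold changes of all 6 are uncertain in this respect.

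**Figure D4:**
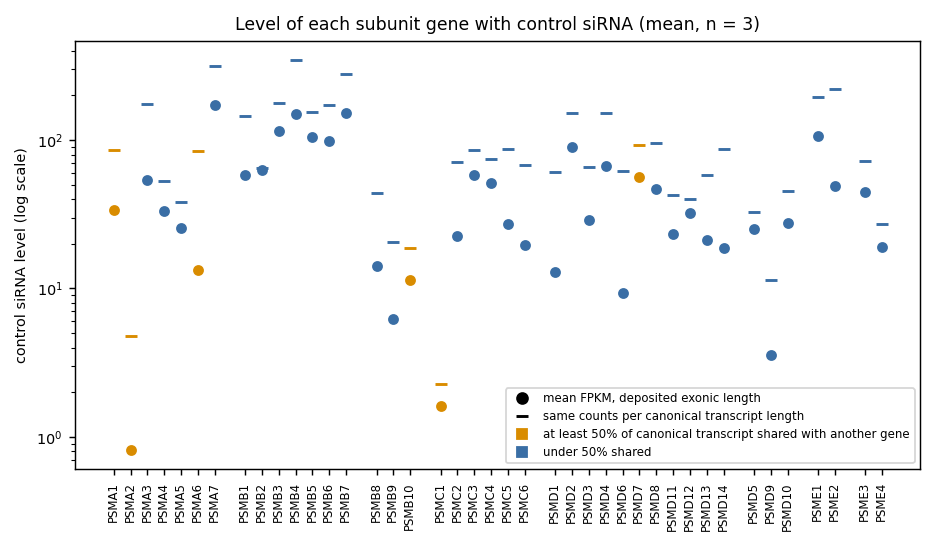
Level of the 41 tested proteasome genes with control siRNA (mean, n = 3) on a log axis, as FPKM with the deposited exonic length (circles) and per kilobase of canonical transcript (dashes), coloured by whether at least 50% of the canonical transcript is shared with another gene. PSMA2 (0.817 FPKM) and PSMC1 (1.62 FPKM) lie far below the other constitutive subunits on both scales.

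Summed over the family, the level was 1918 to 2007 FPKM with control siRNA, 1925 to 2047 under siRNA.1 and 2031 to 2082 under siRNA.2. The constitutive core subunits summed to 1043 to 1097, 1033 to 1120 and 1102 to 1136 FPKM. The 5 induced subunits summed to 186 to 190, 193 to 204 and 201 to 208 FPKM. Most of this was PSME1 and PSME2, which passed in neither comparison, and PSMB10 fell.

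Between the siRNAs, 4 of 41 members (9.76%) differed at an adjusted p under 0.05, against 12.2% of all genes, and all 4 were higher with siRNA.2, as were 6.1% of all genes. They were PSMB1 (0.17, edgeR adjusted p = 0.0135), PSMD1 (0.16, adjusted p = 0.0096), PSMD14 (0.15, adjusted p = 0.0268) and PSMD7 (0.15, adjusted p = 0.0299). PSMB1 stood at 54.6, 57.5 and 52.8 FPKM with siRNA.1 and at 60.7, 63.8 and 58.8 with siRNA.2, with control libraries at 54.5, 60.2 and 61.0. None of the 4 calls held in every alternative. Without siRNA.1 library 3 or siRNA.2 library 2 only the PSMD1 call remained, without siRNA.1 library 2 the count was 2, and without siRNA.1 library 1 it was 7. The PSMD1 call was lost without siRNA.2 library 3 (0.14, adjusted p = 0.103), and the PSMD7 call also without siRNA.2 library 1 (0.15, adjusted p = 0.059).

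Promoter sequence was taken from RefSeq (GRCh38.p14), which gave a window from 250 bases before to 50 after the start for 38 of the 43 members; PSMA7, PSMB1, PSMB6, PSMB7 and PSMD4 had none. The core of the interferon-stimulated response element, searched as GAAA, 2 bases of any kind and GAAA on either strand, was found in 3.65% of 27305 promoters and in 5 members, PSMA4, PSMB4, PSMB10, PSME1 and PSME2. The match in PSME1 lies after the start. The other 4 are shown because they mark which subunits carry the letters, with the match in capitals, 5′ to 3′ on the gene's strand.
PSMB10 (chr16:67936852-67936881, minus strand, match 21 bases upstream of the start): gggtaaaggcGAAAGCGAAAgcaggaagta
PSME2 (chr14:24146619-24146648, minus strand, 28 bases upstream): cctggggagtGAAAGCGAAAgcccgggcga
PSMB4 (chr1:151399495-151399524, plus strand, 68 bases upstream): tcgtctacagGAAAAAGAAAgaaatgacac
PSMA4 (chr15:78540155-78540184, plus strand, 240 bases upstream): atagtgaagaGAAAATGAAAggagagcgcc

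The PSMB10 and PSME2 windows hold the same 10 letters as the match. Of the 5 members with the letters, PSMB10 fell with both siRNAs and the other 4 passed in neither comparison. The windows of PSMB8 and PSMB9, the members that rose most, hold neither these letters nor TTCNNNGAA, the palindromic gamma-activated site, which was found in 7.88% of all promoters and in PSMA2, PSMA8, PSMC4, PSMD3 and PSME3. TGANNNNGC, the antioxidant response element core bound by the NFE2L factors, was found in 42.1% of promoters and in 24 of the 38 members. A match describes letters in the window and does not show a binding site.

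Genes outside the family were read from lists around it. Beside the counts below, 15% of all genes were higher and 15.2% lower with siRNA.1, and 15.8% and 15.1% with siRNA.2. Of 10 regulators of proteasome genes, 5 rose and 3 fell with siRNA.1, and 4 rose and 4 fell with siRNA.2. NLRC5, the class I transactivator, rose by 0.93 and 0.58 on the log2 scale. IRF1, a factor that induces the immunoproteasome genes, fell by 0.31 (edgeR adjusted p = 3.62e-06) and 0.24 (adjusted p = 0.000547). MAFF, a small partner of the NFE2L factors, rose by 0.73 and 0.43. NFE2L1, the factor that raises proteasome genes when the proteasome is inhibited, had 0.05 with siRNA.1 (adjusted p = 0.526) and fell by 0.16 with siRNA.2 (adjusted p = 0.00217), a call lost without control library 3 (-0.13, adjusted p = 0.0502); it was named after its values were seen.

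Of 14 genes of class I peptide loading, 9 rose with each siRNA, and 2 and 3 fell. HLA-B rose by 1.55 and 1.32, HLA-C by 1.51 and 1.04, HLA-F by 1.43 and 1.03, and TAP1 by 1.13 and 1.18. Of 14 proteasome assembly and associated proteins, 5 rose and 0 fell with siRNA.1, and 7 rose and 0 fell with siRNA.2, with the 5 among the 7. Those called were 35.7% and 50% of the list, beside 30.3% and 30.9% of all genes called in either direction. The share of all genes called with both siRNAs was not computed. PSMG4, a core assembly chaperone, rose by 0.69 and 0.76, from 1.14 to 1.21 FPKM to 1.80 to 2.27. PAAF1 rose by 0.30 and 0.30, PSMG3 by 0.19 and 0.38, and the deubiquitylase UCHL5 by 0.24 and 0.25. PAAF1's calls were lost without control library 2 (0.23 and 0.23), and the siRNA.1 call of PSMG3 without siRNA.1 library 1 (0.16, adjusted p = 0.0534).

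Of 12 genes of interferon receptor signalling, 4 rose and 3 fell with siRNA.1, and 3 rose and 4 fell with siRNA.2. STAT2 rose by 0.33 and 0.22, while TYK2, a receptor kinase, fell by 0.42 and 0.47, and IL10RB fell by 0.42 and 0.58 at 1.16 to 2.33 FPKM. The siRNA.1 call of IL10RB was lost in 8 of 19 alternatives, DESeq2 (adjusted p = 0.0785) among them, and without control library 2 or 3 or siRNA.1 library 2 (-0.32 to -0.36). Its siRNA.2 call was lost in 2 of 19, both limma (adjusted p = 0.0502 and 0.0516). Of 6 ubiquitin genes, 1 rose and 3 fell with siRNA.1, and 2 rose and 2 fell with siRNA.2. UBB fell by 0.18 and 0.15, and UBA1, the main ubiquitin-activating enzyme, by 0.18 and 0.13. The siRNA.2 calls were lost without control library 3 for UBB (-0.12, adjusted p = 0.0559) and without siRNA.2 library 1 for UBA1 (-0.11, adjusted p = 0.0735).

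Blood cells carry the immunoproteasome constitutively, so their markers were read beside PSMB8 and PSMB9. The 10 markers summed to 5.54 to 6.63 FPKM with control siRNA, 7.89 to 8.81 under siRNA.1 and 7.41 to 8.73 under siRNA.2. Of the 10, 6 were tested, and 4 rose and 1 fell with each siRNA. These are 83.3% of those tested, beside 30.3% and 30.9% of all genes. MS4A1 was at 0 in all 9 libraries, CD3E was at most 0.02 FPKM and CD2 at most 0.04, and PTPRC reached 0.22 FPKM. LAPTM5, the most abundant of the list with control siRNA and named after its values were seen, went from 4.83 to 5.09 FPKM there to 2.38 to 3.45 under siRNA.1 and 2.27 to 2.58 under siRNA.2, a log2 fold change of -0.75 (edgeR adjusted p = 3.5e-07) and -1.06 (adjusted p = 1.36e-13). LYZ rose from 0.07 to 0.49 FPKM with control siRNA to 2.61 to 3.32 with the siRNAs. Its log2 fold changes were 3.08 and 3.24 (edgeR adjusted p = 7.76e-23 and 3.12e-26). PTPRC rose by 2.15 and 2.12 (adjusted p = 0.000256 and 0.000265). FCER1G, at most 1.62 FPKM, rose by 2.41 and 2.89 (adjusted p = 0.000444 and 6.02e-06). CSF1R, at most 0.92 FPKM, rose by 0.85 and 0.63 (adjusted p = 0.0016 and 0.0267). The part of these markers in the PSMB8 and PSMB9 levels was not tested. Summed fibroblast markers stood at 2.23 to 2.49 FPKM, 1.46 to 1.64 and up to 1.72, and endothelial markers at 1.20 to 1.54, 0.63 to 0.89 and 0.42 to 0.54. In bulk RNA, a change in the share of cells and a change in RNA per cell cannot be told apart.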

How the data were processed

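According to the study's methods, the authors sequenced poly(A)+ RNA, mapped reads to GRCh38 with STAR and obtained gene counts from featureCounts; versions, annotation release and strandedness are not given in the sources used here. The table the authors deposited pairs unnormalized counts with FPKM for each gene and library. By comparison of its columns, FPKM was the count scaled by the deposited exonic length and the library's total count. Libraries held between 15337917 and 22559998 counts, and libraries of a group differed by more than sampling noise (chi-square per degree of freedom 2.73 to 4.40).

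Counts were tested with edgeR 4.0.16 in R 4.3.3 (TMM, quasi-likelihood) in a single fit of 3 groups without covariates, on the 21395 genes averaging 0.1 FPKM or more. P-values were adjusted by Benjamini-Hochberg over all of them, and 0.05 was the threshold. Standard errors were obtained by dividing the size of the fold change (log2) by the root of F, and approximate 95% intervals span 1.96 standard errors. The edgeR p-values set a difference between groups against the spread between libraries of a group, estimated over all 9 libraries. Catalytic pairs were compared by exact two-sided permutation of log2 FPKM ratios in Python 3.11.15. Replicate numbers were checked as pairs: deviations of same-numbered libraries correlated between -0.19 and 0.11, so they were not treated as paired. The edgeR, DESeq2 and limma tests were also run on counts simulated with the spread that edgeR estimated. Such counts follow edgeR's own model, so that run does not show how the tests perform on these data.

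Alternatives were DESeq2 1.42.0, limma 3.58.1 on log2(FPKM + 0.1) and log2(FPKM + 1), other scalings and filters, only the groups compared, rows of a symbol summed, a replicate block and each library left out. Exon overlaps come from GENCODE 44, where 42 of 43 members have the deposited start and end. Members and lists were chosen with earlier results of these data known, and the lists were written from recall. Named by rule were the 5 induced subunits and their counterparts, the 3 highest and 3 lowest other members passing in each comparison with control, up to 5 members differing most between the siRNAs, members at the floor, and up to 4 genes per outside list that passed with both siRNAs. The other called members are named for completeness, and 1 gene chosen by this rule is not reported here.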

Additional observations from a re-analysis of the deposited data

Results flagged for a closer look

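The siRNAs differed from each other, by edgeR's direct comparison of siRNA.2 with siRNA.1, in 10 genes named by rule and in NFE2L1, named after its values were seen. The rule picked PSMB1, PSMD1, PSMD14 and PSMD7 because they differed in this comparison, so their presence among the 10 is no result. Over all genes, 12.2% differed. Cell type markers are not counted here. Members of the proteasome were higher with siRNA.2 by log2 differences of 0.16 for PSMD1 (adjusted p = 0.0096), 0.17 for PSMB1 (adjusted p = 0.0135), 0.15 for PSMD14 (adjusted p = 0.0268) and 0.15 for PSMD7 (adjusted p = 0.0299). Each of these 4 calls was lost under at least 1 alternative. The assembly chaperone PSMG3 was higher with siRNA.2 by 0.18 (adjusted p = 0.0207), a call lost without siRNA.1 library 2 (0.17), siRNA.1 library 3 (0.16) or siRNA.2 library 3 (0.16).

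The other 5 of the 10 were lower with siRNA.2. The log2 differences were -0.36 for NLRC5 (adjusted p = 0.000144), -0.29 for MAFF (adjusted p = 6.38e-05), -0.23 for HLA-B (adjusted p = 4.36e-07), -0.48 for HLA-C (adjusted p = 3.95e-11) and -0.39 for HLA-F (adjusted p = 1.43e-06). NFE2L1 was lower by a difference of -0.21 (adjusted p = 0.000173). PSMB8 and PSMB9 did not pass this comparison, with differences of -0.01 (approximate 95% interval -0.13 to 0.11) and -0.03 (-0.19 to 0.13).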

How the results depend on the processing

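No result changed direction past the threshold under the alternatives run. The count of members that differed between the siRNAs, 4 of 41, was 2 with library totals in place of TMM, 2 with the replicate block, 0 with limma on log2(FPKM + 0.1) or on log2(FPKM + 1), 4 with DESeq2, and 1 to 7 with each library left out in turn. In limma 9 of the 41 had an unadjusted p under 0.05 in that comparison, in edgeR 10 and in DESeq2 8. The count of all genes differing between the siRNAs was 2603, and 1437 or 1414 in limma. With each library left out, 12 to 17 members were called for siRNA.1, and for siRNA.2 the count was 9 to 12. The replicate block left 16 and 11 member calls against control, and ended the PSMD14 (adjusted p = 0.0517) and PSMD7 (adjusted p = 0.0554) calls between the siRNAs. The siRNA.1 calls of PSMB10, PSMA1, PSMC2 and PSMD3, and the siRNA.2 calls of PSMA1 and PSMA3, did not pass in limma. For siRNA.1, DESeq2 also called PSMD12. For siRNA.2, DESeq2 also called PSMB2, and limma also called PSMA5 and PSMD4, with PSME3 on log2(FPKM + 1). The 9 pair ratios kept their direction in all alternatives run for them. Genes of few counts, PSMA2 and PSMC1 among the members, carry standard errors of 0.14 to 0.17 on the log2 scale, so only larger changes were detectable there.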
